A study of Mus musculus with 54 samples.

Results

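Hearts of 3 Mrps12ha/ha mice were set directly against hearts of 3 Mrps12ep/ep mice, both fed a high-fat diet, which uses 18 of the 54 libraries of the series. Mrps12 encodes a protein of the small subunit of the mitochondrial ribosome that lies close to the site where codon and tRNA are matched. Mrps12ep/ep mice carry an error-prone form of this protein and Mrps12ha/ha mice a hyper-accurate form, so the comparison asks how hearts differ when mitochondrial protein synthesis is shifted in fidelity in opposite directions. Each mouse gave 3 technical libraries that the authors pooled into 1 column, and 16057 of 54356 listed genes reached a mean of 10 or more normalized counts over the 9 hearts of the series and were tested.

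All mice were C57BL/6, male, 20 weeks old and on a diet with 42% of its energy from fat. The mutants were homozygous for a germline point mutation, which is therefore present in every cell of the animal, and came from crosses of heterozygous parents. The 3 Mrps12+/+ hearts, from mice matched by age and litter and fed the same diet, entered the fit to estimate the spread. Their values are given beside those of the mutants for some genes only. Where they are not described, which mutant departed from the wild type is not shown. The ha and ep mutations were kept as separate lines, and a difference between the lines cannot be told apart here from a difference between the mutations. RNA came from total hearts, so that atria, vessels, connective tissue and blood were measured together with the ventricles. In such bulk RNA fewer cells of a type and less RNA per cell cannot be told apart. The lights were on for 12 h a day, and the hour at which each heart was taken is not given in the sources used here.

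Mitochondrial ribosomes make only the few subunits of the respiratory chain that mitochondrial DNA encodes. The other subunits, all mitochondrial ribosomal proteins, the import machinery and the chaperones are transcribed in the nucleus, made in the cytosol and imported. The values cover these nuclear transcripts, since the authors left out mitochondrial transcripts. The unprocessed pseudogene Gm29216 alone held 4.37%, 2.84% and 3.06% of the counts of the Mrps12ep/ep hearts. In the Mrps12ha/ha hearts it held 6.78%, 3.62% and 5.39%, and where its reads came from was not tested. Hearts are known to answer mitochondrial faults through the integrated stress response, through heat shock proteins and through a return to fetal gene expression, and their metabolism follows a circadian clock.

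Mrps12 itself read 1292, 1066 and 1124 normalized counts in the Mrps12ep/ep hearts and 1333, 1084 and 1397 in the Mrps12ha/ha hearts, and the groups overlapped (log2 difference 0.13 ± 0.13 (SE), limma adjusted p = 0.594). As both mutations change single bases, this level is no check of the genotype labels.

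The hearts were not equal in quality. Reads on genes ranged from 11202866 to 51480271 per heart, and the shallowest was Mrps12ha/ha mouse 2, in which 1 read is worth 3.02 normalized counts. In a principal component analysis of all tested genes this heart lay apart from the other Mrps12ha/ha hearts on the second component (25.2% of the variance, -37.5 against 61.2 and 47.1). There it lay near Mrps12+/+ mouse 1 (-39.9) and Mrps12ep/ep mouse 1 (-31.5). Its log2 values correlated more closely with those hearts (r = 0.972 and 0.971) than with Mrps12ha/ha mice 1 and 3 (0.946 and 0.952). Which of the Mrps12ha/ha hearts stand for the genotype is therefore not shown. Mrps12ep/ep mouse 2 lay at the far end of the first component (34.7%, 75.9 against -47.2 to -35.5 in the Mrps12ha/ha hearts). Transcripts of high GC content and short transcripts were higher in Mrps12ha/ha mice 1 and 3 but not in mouse 2. For the 1606 genes with the highest GC content, median 59.6%, the median deviation from the mean of all hearts was 0.18 in mouse 1, 0.21 in mouse 3 and -0.04 in mouse 2 on the log2 scale. For the 1608 shortest, median 701 bases, it was 0.21, 0.22 and 0.01. Counts are therefore also given without Mrps12ha/ha mouse 2, or with the GC and length trend removed from each heart, where these change the picture.

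At an adjusted p under 0.05 (limma, Benjamini-Hochberg over all tested genes) 4 genes were called, 0.0249% of those tested. 1 rose in the Mrps12ha/ha hearts (0.00623%) and 3 fell (0.0187%). An unadjusted p under 0.05 was reached by 2879 genes (17.9%), and limma-voom on the recovered reads called 3 genes, all among these 4. Most genes described here were not called, and for them the text gives the values of each heart and says whether the genotypes overlap. In 1409 genes (8.77%) every Mrps12ha/ha heart lay above every Mrps12ep/ep heart and in 1256 (7.82%) every one lay below. These shares are the background for each gene group below, and the exact permutation p of any such gene is 0.1, the smallest that 3 against 3 hearts can give. Over all tested genes 7627 were higher in the Mrps12ha/ha hearts and the median log2 difference was -0.023. No member of the 42 gene lists used below was called by limma in the fit of all 9 hearts.

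With Mrps12ha/ha mouse 2 left out, 1663 genes were called higher (10.4%) and 2067 lower (12.9%) in the remaining 2 Mrps12ha/ha hearts. The omitted heart was not used for these calls, but it was set against the same Mrps12ep/ep hearts that gave them. Its shares are therefore not independent of the calls. Over all 16057 tested genes mouse 2 lay above the Mrps12ep/ep mean in 8058. Of the 1663 called higher, mouse 2 lay on the same side of the Mrps12ep/ep mean in 64.5%, above every Mrps12ep/ep heart in 35.4% and below every one in 18.3%. Of the 2067 called lower, it lay on the same side in 45.7%, below every Mrps12ep/ep heart in 23.7% and above every one in 26.2%. The median log2 difference from the Mrps12ep/ep mean was 0.68 in mice 1 and 3 but 0.08 in mouse 2 for the first group, and -0.64 but 0.02 for the second. Most of what separates mice 1 and 3 from the Mrps12ep/ep hearts was thus not seen in mouse 2, and the groups below are told apart by whether that heart shared them.

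**Figure D1:**
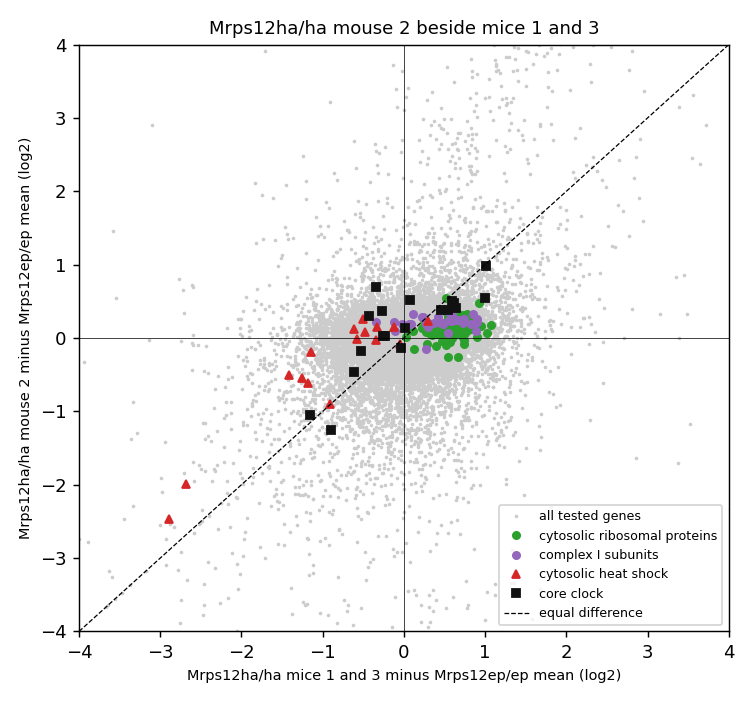
Difference of Mrps12ha/ha mouse 2 from the Mrps12ep/ep mean (vertical axis, log2) against that of Mrps12ha/ha mice 1 and 3 (horizontal axis, log2) for all tested genes (grey) and 4 gene lists, with 112 genes outside the limits of ±4. The heat shock genes with the largest differences and several clock genes lie near the dashed line of equal difference, while cytosolic ribosomal protein genes lie to the right with a median of 0.106 in mouse 2.

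The called genes were processed pseudogenes and a short transcript that share their sequence with other genes. Gm15387 (chromosome 15, 74093686 to 74094333) read 387, 314 and 413 normalized counts in the Mrps12ep/ep hearts and 498, 679 and 559 in the Mrps12+/+ hearts and was listed at 0 in all Mrps12ha/ha hearts (limma adjusted p = 2.85e-07). Ptges3-ps (chromosome 6, 85843980 to 85844459) read 102, 159.5 and 191 in Mrps12ep/ep, 159, 118 and 142 in Mrps12+/+ and 0 in Mrps12ha/ha hearts (limma adjusted p = 2.17e-05). Gm6206 (chromosome X, 103163110 to 103165407) read 55.5, 111 and 103, 153, 156 and 65.4 and 0 in the same order (limma adjusted p = 0.000611). All 3 were present in both other genotypes and were listed at 0 in each Mrps12ha/ha heart, the shallow one included. Taking 3 reads in each Mrps12ha/ha heart as the floor, a mean of 5.55 normalized counts, the Mrps12ep/ep mean was at least 66.9-fold higher for Gm15387, at least 27.1-fold for Ptges3-ps and at least 16.2-fold for Gm6206.

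The only called rise was AL731706.2 (chromosome 2, 136885500 to 136885679), which was listed at 0 in all Mrps12ep/ep hearts. It read 12.9, 33.2 and 27 in the Mrps12ha/ha hearts and 25.8, 32 and 27.7 in the Mrps12+/+ hearts (limma adjusted p = 0.0321), at least 9.83-fold above a floor of 3 reads per Mrps12ep/ep heart, and its lowest Mrps12ha/ha heart held 7 reads. This call was made in 12 of 25 alternatives and was lost when both mutants alone were fitted (limma adjusted p = 0.356). For this transcript it was therefore the Mrps12ep/ep hearts that stood apart from the wild type. The assignment of reads to all 4 is uncertain. Their nearest copies among annotated transcripts are Hmgb1 (99.8% identical over 648 bases), Ptges3 (100% over 480), Cop1 (99.7% over 2202) and, for AL731706.2, Mkks and AL731706.1 (100% over 180), and the estimation of counts had to divide shared reads between copies. In the livers of the same genotypes Gm15387 was not at 0, with 682 to 1054 normalized counts in Mrps12ha/ha mice. Ptges3-ps was listed at 0 in every liver but 1, which was of a Mrps12ha/ha mouse, and Gm6206 and AL731706.2 in all 9 livers.

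Core genes of the circadian clock stood apart in both directions. The clock is a loop in which ARNTL (BMAL1) with CLOCK or NPAS2 switches on Per, Cry, Nr1d and the D-box genes, PER and CRY proteins block that activation, and the Nr1d products (REV-ERB) repress Arntl and Npas2. Of 19 tested members, 6 were higher in every Mrps12ha/ha heart than in every Mrps12ep/ep heart (31.6%, against 8.77% of all genes) and 4 were lower (21.1%, against 7.82%). The 6 genes that were higher are among those the loop activates. The 4 that were lower were the activators Arntl, Npas2 and Clock, and Bhlhe40, which is a repressor and not one of these activators. Per1 and Cry1, which the loop also activates, overlapped between the groups, as did Ciart and Bhlhe41. 11 members had an unadjusted p under 0.05 and none was called by limma.

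Promoter windows of 3 clock genes are shown because they hold an element of the loop, from RefSeq on GRCm38.p6, 300 bases each, from 250 bases before the gene's start to 50 after it. Capitals mark a D-box in Per3 (chr4:151044616-151044915, minus strand), an E-box in Tef (chr15:81802423-81802722, plus strand) and a ROR element in Arntl (chr7:113207261-113207560, plus strand).
Per3: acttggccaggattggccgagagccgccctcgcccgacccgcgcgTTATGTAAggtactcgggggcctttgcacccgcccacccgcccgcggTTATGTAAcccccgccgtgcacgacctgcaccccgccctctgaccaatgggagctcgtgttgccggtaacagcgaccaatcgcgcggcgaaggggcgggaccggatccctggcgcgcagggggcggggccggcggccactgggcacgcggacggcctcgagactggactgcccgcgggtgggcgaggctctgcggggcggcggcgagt
Tef: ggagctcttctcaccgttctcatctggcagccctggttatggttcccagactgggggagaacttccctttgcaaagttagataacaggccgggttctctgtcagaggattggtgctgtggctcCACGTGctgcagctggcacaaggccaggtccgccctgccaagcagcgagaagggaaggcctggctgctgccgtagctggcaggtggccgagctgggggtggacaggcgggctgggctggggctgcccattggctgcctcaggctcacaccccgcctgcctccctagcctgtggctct
Arntl: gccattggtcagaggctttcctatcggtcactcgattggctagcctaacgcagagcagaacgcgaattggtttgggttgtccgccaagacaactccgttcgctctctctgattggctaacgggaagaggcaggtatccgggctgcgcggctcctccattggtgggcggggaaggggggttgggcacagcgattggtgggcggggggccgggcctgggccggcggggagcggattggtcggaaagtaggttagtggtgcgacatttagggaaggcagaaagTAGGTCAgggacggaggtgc
The D-box (TTATGTAA, TTACATAA or TTACGTAA on either strand) is bound by DBP and TEF, the E-box (CACGTG) by ARNTL with its partners, and the ROR element (TAGGTCA or TGACCTA) by REV-ERB and ROR. Of 32851 RefSeq promoter windows 1.06% held the D-box, 7.15% the E-box and 2.61% the ROR element. Of the clock genes that were higher, 5 were matched in the table, of which 1 held a D-box and 1 an E-box, and of the 3 matched genes that were lower 1 held a ROR element. Of the 8 matched clock genes whose groups overlapped 4 held an E-box and 1 a ROR element.

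Dbp, a transcription factor that binds D-boxes, read 2301, 1729.8 and 1978 in the Mrps12ep/ep hearts and 5471, 3941 and 2945 in the Mrps12ha/ha hearts, against 1732, 2192 and 1735 in the Mrps12+/+ hearts. All 3 Mrps12ha/ha hearts stood above the other 6 (log2 difference 1.004 ± 0.22 (SE), limma adjusted p = 0.204). Per3, a period gene, read 677, 605 and 829 in Mrps12ep/ep and 1771, 1021 and 1098 in Mrps12ha/ha hearts, again with no overlap (log2 difference 0.85 ± 0.23). Per2, which limits the activity of ARNTL and CLOCK, read 1236, 973 and 1312 and 1741, 1543 and 1899 (log2 difference 0.56 ± 0.17). In both period genes the highest Mrps12ep/ep heart, mouse 3, lay below the lowest Mrps12ha/ha heart, mouse 2. Nr1d1, which encodes REV-ERBα, read 6308, 5115 and 6242 and 8764, 7653 and 8359, with 4551, 4936 and 3898 in Mrps12+/+ hearts (log2 difference 0.49 ± 0.13). Its paralogue Nr1d2 had a log2 difference of 0.43 ± 0.14, and Tef, a relative of Dbp, of 0.56 ± 0.18.

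Arntl was lower, with 479.5, 752 and 516 normalized counts in the Mrps12ep/ep hearts and 263, 239 and 354 in the Mrps12ha/ha hearts. The Mrps12ha/ha hearts also lay below the Mrps12+/+ hearts, which read 605, 525 and 406 (log2 difference from Mrps12ep/ep -1.02 ± 0.23 (SE), limma adjusted p = 0.216). Npas2 read 167, 393 and 242 and 86.5, 121 and 147 (log2 difference -1.12 ± 0.33). Clock read 1489.9, 1693 and 1829 and 1171, 1468 and 1138 (log2 difference -0.41 ± 0.13). For Clock the gap was narrow, since Mrps12ha/ha mouse 2 came close to the lowest Mrps12ep/ep heart. Bhlhe40, a repressor that competes for E-boxes, read 3377, 3315 and 2541 and 1889, 2205 and 2113 (log2 difference -0.56 ± 0.14).

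Without Mrps12ha/ha mouse 2, limma called Dbp, Per3, Per2 and Nr1d1 higher and Arntl, Clock and Bhlhe40 lower, with adjusted p of 0.0236, 0.0198, 0.0393 and 0.0222 and of 0.0333, 0.0104 and 0.0189. With the GC and length trend removed as well, Dbp, Per2, Nr1d1 and Arntl were no longer called (limma adjusted p = 0.0521, 0.0773, 0.066 and 0.0649), while Npas2 (0.044) and Nr1d2 (0.0199) were. In the livers of the same genotypes the fitted log2 differences were 0.97 for Dbp, 1.177 for Per3, 0.36 for Tef, 0.28 for Per2, 0.16 for Nr1d2, 0.16 for Nr1d1, -0.71 for Arntl, -1.81 for Npas2 and -0.18 for Clock. Bhlhe40 alone of the 10 had the other sign in the liver (0.081). Over the list 12 of 19 genes were higher in the livers, with a median of 0.163. The part of the hour of collection in these values was not tested.

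**Figure D2:**
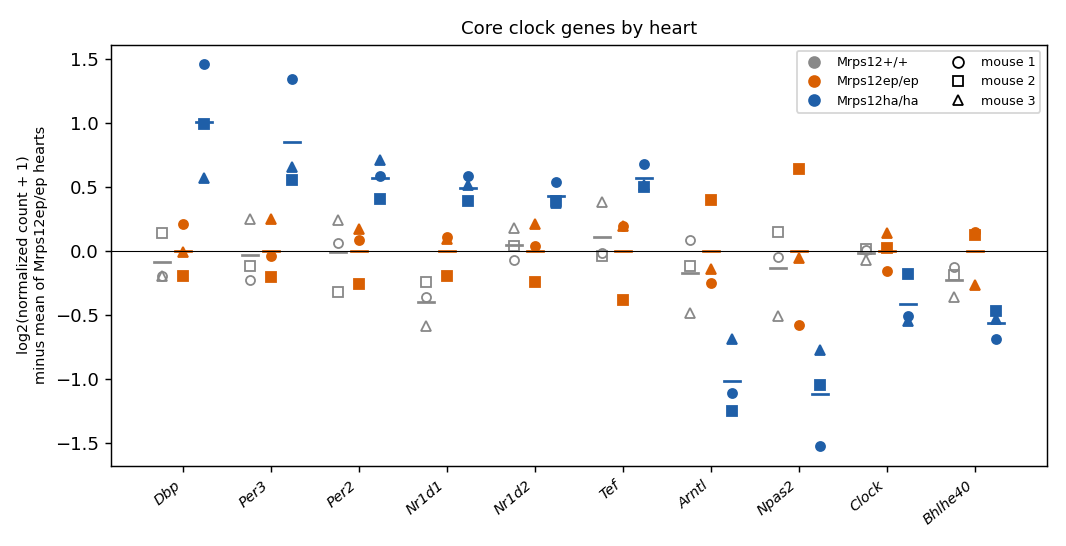
Values of 10 core clock genes in each heart as log2(normalized count + 1) minus the mean of the 3 Mrps12ep/ep hearts (vertical axis), with points for mice and bars for genotype means. The blue Mrps12ha/ha points lie above the orange Mrps12ep/ep points for the first 6 genes, from Dbp (log2 difference 1.004) to Tef (0.56), and below them for Arntl (-1.02), Npas2 (-1.12), Clock (-0.41) and Bhlhe40 (-0.56).

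Most cytosolic heat shock genes had a lower mean in the Mrps12ha/ha hearts, though over the list this came mainly from mice 1 and 3. HSF1, the heat shock factor, induces these chaperones when unfolded proteins accumulate in the cytosol, and HSP70 and HSP90 with their J-domain partners then refold or hold them. Of 16 tested members 6 were lower in every Mrps12ha/ha heart than in every Mrps12ep/ep heart (37.5%, against 7.82% of all genes), 1 of 16 had a higher mean in Mrps12ha/ha hearts, and the median log2 difference was -0.38 against -0.023 over all genes. 7 members had an unadjusted p under 0.05. In mouse 2 alone the median difference from the Mrps12ep/ep mean was -0.053, and 6 members lay above that mean. The members that were apart are the strongly inducible HSP70, HSP90, HSP110 and J-domain genes.

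Promoter windows of 3 of them are shown for their heat shock elements, from RefSeq on GRCm38.p6, of the same extent as above. Capitals mark pairs of half-sites (GAANNTTC or TTCNNGAA, each its own reverse complement) in Hspa1b (chr17:34959189-34959488, minus strand), Dnaja1 (chr4:40722218-40722517, plus strand) and Hsph1 (chr5:149636287-149636586, minus strand), where a pair of matches overlap at the end.
Hspa1b: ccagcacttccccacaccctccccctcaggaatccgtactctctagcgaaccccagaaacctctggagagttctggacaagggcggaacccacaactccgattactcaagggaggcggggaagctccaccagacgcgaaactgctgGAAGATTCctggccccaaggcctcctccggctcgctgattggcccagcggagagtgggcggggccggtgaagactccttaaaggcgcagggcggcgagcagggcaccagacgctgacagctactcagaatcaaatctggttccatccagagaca
Dnaja1: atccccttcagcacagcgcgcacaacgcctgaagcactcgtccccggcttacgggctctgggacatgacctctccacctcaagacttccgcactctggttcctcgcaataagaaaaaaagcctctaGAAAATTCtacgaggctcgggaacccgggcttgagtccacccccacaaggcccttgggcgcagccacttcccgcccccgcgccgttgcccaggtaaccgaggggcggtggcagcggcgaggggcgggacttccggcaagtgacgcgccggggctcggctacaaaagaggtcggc
Hsph1: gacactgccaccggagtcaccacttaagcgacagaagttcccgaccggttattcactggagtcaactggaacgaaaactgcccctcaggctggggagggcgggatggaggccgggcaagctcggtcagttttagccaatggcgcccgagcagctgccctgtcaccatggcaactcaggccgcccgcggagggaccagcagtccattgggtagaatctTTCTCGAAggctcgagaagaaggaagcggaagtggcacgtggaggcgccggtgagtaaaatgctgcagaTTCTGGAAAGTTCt
Such a pair was found in 15.1% of all promoter windows. It was found in 4 of the 5 matched heat shock genes that were lower in every Mrps12ha/ha heart, and likewise in 5 of the 6 matched members whose groups overlapped.

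Hspa1b and Hspa1a encode the stress-inducible HSP70 and are 99.1% identical over 2200 bases, so that the division of reads between them is uncertain. Hspa1b read 2974, 3328 and 1154 in Mrps12ep/ep hearts, 221, 408 and 412 in Mrps12ha/ha hearts and 3346, 959 and 817 in Mrps12+/+ hearts (log2 difference -2.75 ± 0.57 (SE), limma adjusted p = 0.19). Hspa1a read 2569, 2997 and 1237, 245, 532 and 439.8 and 3402, 988 and 866 (log2 difference -2.46 ± 0.54). For both genes the Mrps12ha/ha hearts were the lowest 3 of all 9, and Mrps12+/+ mouse 1 reached the level of the higher Mrps12ep/ep hearts.

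Dnajb1, a J-domain partner of HSP70, read 1609.7, 1503 and 1329.5 in Mrps12ep/ep and 674, 794 and 909 in Mrps12ha/ha hearts, with little spread in either (log2 difference -0.91 ± 0.19, limma adjusted p = 0.194). Hsp90aa1, the inducible HSP90, read 13879, 10740.3 and 12671 and 4479, 8480.4 and 6042 (log2 difference -1.01 ± 0.28). Here, as for Dnaja1 (log2 difference -0.99 ± 0.29) and the HSP110 gene Hsph1 (-1.11 ± 0.40), Mrps12ha/ha mouse 2 was the highest of its group and still below the lowest Mrps12ep/ep heart. Without that mouse limma called 8 members lower (50.0%, against 12.9% of all genes), with adjusted p of 0.0189 for Hspa1b and 0.0149 for Hsp90aa1. Without Mrps12ha/ha mouse 1 instead the median of the list was -0.21. The constitutive HSC70 gene Hspa8 overlapped between the groups, with 104524, 75534 and 103025 against 64380.1, 98769 and 69957, and so did the factor Hsf1 itself, with 1808, 1514 and 1569 against 1745, 1918 and 2292. In the livers 3 of 16 members were higher in Mrps12ha/ha mice and the median log2 difference was -0.45.

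**Figure D3:**
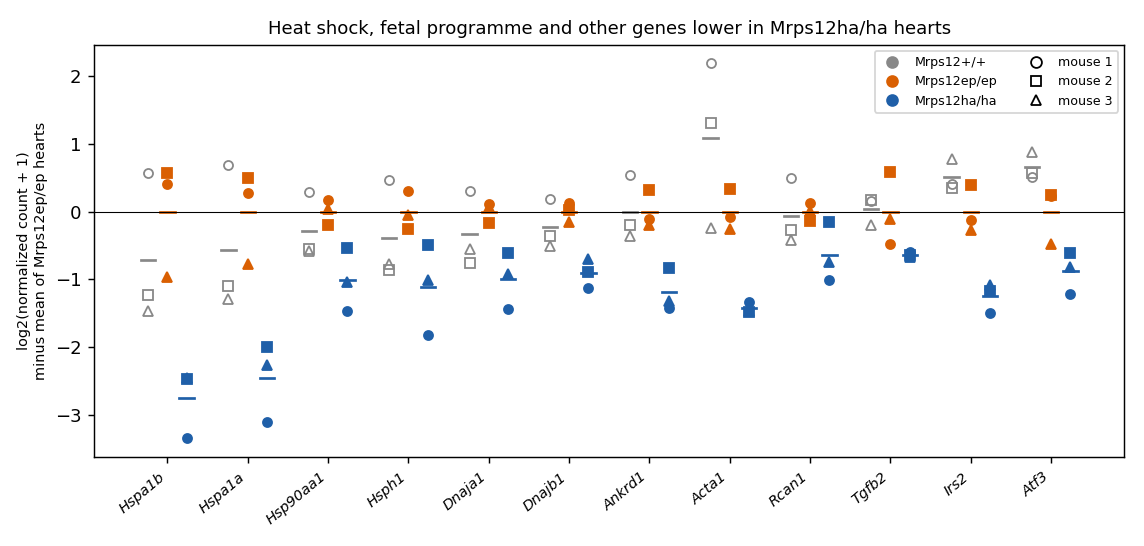
Values in each heart as log2(normalized count + 1) minus the mean of the 3 Mrps12ep/ep hearts (vertical axis) for 6 heat shock genes and 6 genes of other lists, with points for mice and bars for genotype means. Every blue Mrps12ha/ha point lies below every orange Mrps12ep/ep point of its gene, by a fitted 2.75 on the log2 scale for Hspa1b and 0.64 for Rcan1.

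Outside the mesothelial genes given further below, Irs2 had the smallest p of any list member. Irs2 encodes an insulin receptor substrate that passes the insulin signal to PI3 kinase and is itself a FoxO target. It read 672, 969.6 and 611 in the Mrps12ep/ep hearts and 259.5, 326 and 347 in the Mrps12ha/ha hearts, and 974, 934 and 1260.3 in the Mrps12+/+ hearts. The Mrps12ha/ha hearts were the lowest 3 of the 9, with the shallow heart in the middle of its group (log2 difference -1.25 ± 0.20 (SE), limma adjusted p = 0.157, and 0.00804 without mouse 2). Over the 30 tested insulin and FoxO genes 3 were lower without overlap (10.0%, against 7.82% of all genes) and none higher. An unadjusted p under 0.05 was reached by 5 of them, and by 17.9% of all genes, and 3 had a higher mean in the Mrps12ha/ha hearts. The median log2 difference was -0.24, in mouse 2 alone 0.038, and without mouse 1 -0.14. Mtor, the kinase of growth signalling, read 2654, 1983 and 2493 against 1012, 1912 and 1806 (log2 difference -0.64 ± 0.23), whereas Tsc2, which restrains it, read 5904, 4004 and 3996 against 8059, 5611 and 8101 with overlapping groups. The insulin-responsive glucose transporter Slc2a4 overlapped as well, with 12242, 9778 and 13411 against 8734, 13784 and 8956.

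Several genes of fatty acid handling were higher in the Mrps12ha/ha hearts. Angptl4, a secreted inhibitor of lipoprotein lipase that fatty acids induce through PPARs, read 542, 495 and 460.4 against 1195, 1235 and 2095 (log2 difference 1.55 ± 0.29 (SE), limma adjusted p = 0.179). Ucp3, a mitochondrial uncoupling protein and another PPAR target, read 1557, 1472 and 1834 against 3510.3, 2924 and 5499 (log2 difference 1.25 ± 0.23, limma adjusted p = 0.179). In both genes all Mrps12ha/ha hearts, the shallow one included, lay above all Mrps12ep/ep and all Mrps12+/+ hearts. Slc27a1, a fatty acid transporter (log2 difference 0.48 ± 0.16), and Etfb, which passes electrons from fatty acid oxidation to the respiratory chain (0.41 ± 0.16), were also higher without overlap. With mouse 2 left out and the GC and length trend removed the log2 difference of Etfb turned to -0.046. These 4 of 33 tested members (12.1%) were not the rule for the list, of which 17 were higher, none was lower without overlap and 4 had an unadjusted p under 0.05. Its median log2 difference was 0.026 and turned to -0.16 without mouse 2. Of 39 genes of glycolysis, pyruvate and the TCA cycle 3 were higher without overlap (7.69%, against 8.77% of all genes) and none was lower. Among these 3 was Hk2, the hexokinase of muscle, with 12496, 7885 and 10009.6 against 16712, 12823 and 16071.

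The integrated stress response, in which ATF4 turns on amino acid and one-carbon genes and later Ddit3 (CHOP), was split. Of 29 tested genes 5 were higher (17.2%) and 4 lower (13.8%) without overlap, and the median log2 difference was -0.015. For 7 of them limma gave an unadjusted p under 0.05. Ddit3 read 828, 676 and 686 in Mrps12ep/ep hearts and 1373, 963 and 1138 in Mrps12ha/ha hearts, with every Mrps12ha/ha heart the higher (log2 difference 0.66 ± 0.15 (SE), limma adjusted p = 0.213, and 0.00662 without mouse 2). Trib3, a target of CHOP, read 134, 132 and 138 against 243, 145 and 269, with mouse 2 only just above the Mrps12ep/ep hearts. Mthfd1l, a mitochondrial one-carbon enzyme, was low throughout at 36.7, 41.8 and 30.9 against 69.9, 66.4 and 74. Atf4 itself overlapped between the groups (4506, 4035 and 4094 against 4166, 3902 and 5038). In the other direction Atf3, a stress-induced relative, read 584, 591 and 358 against 214, 326 and 284 (log2 difference -0.88 ± 0.23). For Atf3 the Mrps12+/+ hearts read 708, 741 and 919, above the hearts of both mutants. The proline synthesis gene Aldh18a1 read 468, 521 and 500.4 against 324, 384 and 390.0.

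Among 28 amino acid transporters 2 were higher and 4 lower without overlap, and 6 had an unadjusted p under 0.05. Slc6a6, the taurine transporter, read 4818, 4815 and 5295 against 9114, 7909.6 and 6971 (log2 difference 0.68 ± 0.13 (SE), limma adjusted p = 0.19), and the Mrps12+/+ hearts lay with the Mrps12ep/ep hearts at 4921, 4144 and 3919.9. Slc38a1, a sodium-coupled transporter of glutamine, read 253, 1122 and 526 against 139.9, 154 and 199 (log2 difference -1.70 ± 0.53). Its order over the Mrps12ep/ep hearts, lowest in mouse 1 and highest in mouse 2, is also that of the atrial and mesothelial markers given below, and their part in its difference was not tested.

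All 78 tested cytosolic ribosomal protein genes had a higher mean in the Mrps12ha/ha hearts, 43 of them without overlap (55.1%, against 8.77% of all genes). An unadjusted p under 0.05 was reached by 57, and the median log2 difference was 0.40. It was carried by mice 1 and 3, since mouse 2 alone differed by 0.106. Without mouse 2 the median was 0.55 with 65 genes called higher (83.3%, against 10.4% of all genes). With the GC and length trend removed as well 36 were called. Rpl37 read 2166, 2197 and 1906 in Mrps12ep/ep hearts and 3591, 2625 and 3580.2 in Mrps12ha/ha hearts (log2 difference 0.63 ± 0.14 (SE), limma adjusted p = 0.209). Rpl14 read 4702, 5092 and 4439.9 against 7862, 5877 and 7819 and Rpl13 5737, 6175 and 5316 against 8867, 7212 and 9365. In each of these the shallow heart was the lowest of its group and close to the Mrps12ep/ep range. These transcripts are short, with a median of 706 bases against 1802 over all tested genes. With the GC and length trend removed the median was 0.23 and 74 of 78 stayed higher. The pseudogene Rpl14-ps1, 98.9% identical to Rpl14 over 656 bases, went the other way, with 1081, 895 and 1086 against 0, 532 and 109, and the division of reads between the copies is uncertain.

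Most nuclear genes of the respiratory chain were higher in the mean, by medians like that of the ribosomal protein genes but with fewer genes free of overlap. In complex I 34 of 37 subunits were higher, 5 without overlap (13.5%), with a median log2 difference of 0.39. In complex IV 17 of 17 were higher, 4 without overlap (23.5%), with a median of 0.37. In complex V 16 of 17 were higher, 1 without overlap (5.88%), with a median of 0.43. An unadjusted p under 0.05 was reached by 21, 9 and 8 subunits. Ndufa13 of complex I read 15231, 11164 and 12195 against 24922, 16049 and 21080.0 (log2 difference 0.67 ± 0.18 (SE), limma adjusted p = 0.234). Cox7a2 of complex IV read 8611, 6351 and 7277 against 11157, 8625 and 11103, with mouse 2 only just above the highest Mrps12ep/ep heart, mouse 1. Atp5l of complex V read 16549, 11349 and 13584 against 21969, 17498 and 19189. The spread among the Mrps12ep/ep hearts was wide, mouse 2 being the lowest in all 3 genes, and without it the medians were 0.25, 0.27 and 0.32. These transcripts too are short, with median lengths of 763, 569 and 840 bases, and with the GC and length trend removed the medians were 0.18, 0.14 and 0.24. In complex III 8 of 9 and in complex II 1 of 4 subunits were higher, 1 of them without overlap. The complex II gene Sdha read 58153, 40648 and 59502 against 31963, 63277 and 32464, with mouse 2 the highest of all 6.

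The genes of the mitochondrial ribosome, to which Mrps12 belongs, differed less. Of 78 tested 63 were higher, 5 without overlap (6.41%, under the 8.77% of all genes) and 1 was lower without overlap, with a median log2 difference of 0.14 that shrank to 0.06 with the GC and length trend removed. 13 had an unadjusted p under 0.05. Mrpl52 read 785, 718 and 668 against 1101, 852 and 1025 (log2 difference 0.45 ± 0.14), but its direction turned with the trend removed (-0.016). Of 37 genes of mitochondrial import, chaperones and proteases 3 were higher without overlap (8.11%, against 8.77% of all genes) and none lower. Of these Timm10b, a small import chaperone, had the smallest p, with 632, 562 and 698 against 1001, 885 and 963 and no overlap (log2 difference 0.59 ± 0.12 (SE), limma adjusted p = 0.184). Of 17 mitochondrial tRNA synthetases none was apart in either direction, of 30 factors for mitochondrial DNA and RNA 1 was higher (Slirp, which stabilizes mitochondrial mRNA, 793, 672 and 731 against 1136, 849 and 1136), and of 12 regulators of mitochondrial biogenesis 1 was lower (Pprc1, a PGC-1 relative, 1005, 1089 and 1061 against 705, 731 and 988).

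Genes that mark stretch, hypertrophy and the fetal programme of the heart were lower in the Mrps12ha/ha hearts. Of 21 tested 3 had a higher mean, 6 were lower without overlap (28.6%, against 7.82%), and the median log2 difference was -0.67, with an unadjusted p under 0.05 in 7. Without Mrps12ep/ep mouse 2 the median was -0.35. Ankrd1, a stretch-responsive nuclear and sarcomeric protein, read 45968, 62099 and 43171 against 18604, 27933 and 19851 (log2 difference -1.19 ± 0.27 (SE), limma adjusted p = 0.227). Acta1, the skeletal α-actin of fetal and overloaded hearts, read 7819.9, 10462 and 6920.0 against 3282, 2978 and 3004 and 37619, 20543 and 6961 in Mrps12+/+ hearts, of which mouse 1 was far the highest. Rcan1, a target of calcineurin, read 3859, 3218 and 3559.9 against 1762, 3177 and 2107, and mouse 2 fell just short of the Mrps12ep/ep range. The natriuretic peptide genes overlapped. Nppb read 5096, 4976 and 3246 against 3582, 2875 and 954, and Nppa, which atria express most, read 1593, 188122 and 47558 against 4582, 4179.8 and 3885, a range within the Mrps12ep/ep group that exceeds any difference between the genotypes. The myosin heavy chains overlapped too, with Myh6, the adult isoform, at 1256398, 1054315 and 994852 against 2130354, 1185571 and 1846145 and Myh7, the fetal one, at 6682, 11628 and 8587 against 7146, 15804 and 18009.5.

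Of 32 genes of the sarcomere and of calcium handling 6 were higher without overlap (18.8%), none was lower without overlap, 15 had a higher mean and 8 an unadjusted p under 0.05. The median log2 difference was -0.087. Without Mrps12ha/ha mouse 2 it was -0.253, with 9 members called lower (28.1%, against 12.9% of all genes) and 3 higher (9.38%, against 10.4%). Tcap, the titin cap, read 42207, 34880.4 and 39363 against 77076, 47989 and 83351 (log2 difference 0.80 ± 0.24 (SE), limma adjusted p = 0.238). Actn2, the α-actinin of the Z-disc, read 69121, 51938 and 65401 against 117171, 73101 and 104364. Ryr2, the calcium release channel, showed how far mouse 2 could part from its group, with 46025, 42377 and 56979.6 in Mrps12ep/ep and 16285, 44622 and 19113 in Mrps12ha/ha hearts. Its value in mouse 2 lay within the Mrps12ep/ep range while mice 1 and 3 were the lowest of all 9 hearts.

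Collagen and matrix genes were lower, with 14 of 32 below every Mrps12ep/ep heart (43.8%), 10 with an unadjusted p under 0.05, 2 with a higher mean in the Mrps12ha/ha hearts and a median log2 difference of -0.44. Col3a1, a fibrillar collagen, read 9869.5, 19925 and 11593 against 7908, 8408 and 7269.6 (log2 difference -0.75 ± 0.25 (SE), limma adjusted p = 0.244). Fbn1, which encodes fibrillin, read 2112, 3871 and 2465 against 1668, 1676 and 1927, and Col5a1 2567, 3649 and 2859 against 2268, 2344 and 2138. In all 3 Mrps12ep/ep mouse 2 was the highest heart, and without it the median of the list was -0.22. The summed fibroblast markers were 188370 in that heart and 92929 to 120940 in the other 5, and their part in the collagen values was not tested.

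The markers of cell types at the edge of the heart differed most in size. Mesothelium, the epithelium that covers the heart and pericardium, had 10 tested markers, of which none was higher, 6 were lower without overlap (60.0%) and 8 had an unadjusted p under 0.05, with a median log2 difference of -2.50. Lrrn4 read 20.8, 354 and 152 against 1.8, 0 and 0 (limma adjusted p = 0.157). Upk3b, a uroplakin of mesothelial cells, read 82.2, 1179 and 509 against 23.9, 60.4 and 0.7, and the mucin gene Muc16 34.7, 333 and 186 against 23.9, 18.1 and 2.1. The order within each genotype was wide, and Mrps12ep/ep mouse 1 lay closer to the Mrps12ha/ha hearts than to the other Mrps12ep/ep hearts in all 3 genes. Summed over the list, the markers came to 808, 4304 and 1979 in the Mrps12ep/ep hearts, to 451 to 685 in the Mrps12ha/ha hearts and to 1114 to 2526 in the Mrps12+/+ hearts. Upk1b, Krt19 and Cyp2s1 had the same pattern, with log2 differences of -3.76 ± 1.101, -2.61 ± 0.89 and -3.48 ± 0.82.

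Atrial markers were lower in the mean for 13 of 13 genes, with a median of -2.04, yet none was without overlap and 1 had an unadjusted p under 0.05. Without Mrps12ep/ep mouse 2 the median was -0.76, and without mouse 2 of both genotypes -0.12. Their sums were 8989, 419080 and 107220 in Mrps12ep/ep hearts, 10984 to 17426 in Mrps12ha/ha hearts, and 15197, 184270 and 136560 in Mrps12+/+ hearts. Bmp10, a defining marker of the right atrium, read 1.0, 45047 and 4.5 against 14.7, 0 and 0. Mrps12ep/ep mouse 2 held the most marker RNA of all 9 hearts, while Mrps12ep/ep mouse 1 and Mrps12+/+ mouse 1 were as low as the Mrps12ha/ha hearts. Vdr, the vitamin D receptor, read 18.8, 492 and 58.1 against 7.4, 6.0 and 17.3 and Clvs1 51.5, 377 and 136 against 14.7, 36.2 and 18.7, both with the highest value in Mrps12ep/ep mouse 2. The part of atrial tissue in these was not tested. Pcp4, a small calmodulin-binding protein of the conduction system, stood apart in the other direction at 1.0, 14.5 and 8.2 against 82.8, 57.4 and 56 (log2 difference 3.31 ± 0.80 (SE), limma adjusted p = 0.227), with 13.8, 2.6 and 10.1 in Mrps12+/+ hearts. The 9 ventricular markers were all higher in the mean, 2 without overlap, with sums of 1532400 to 2085000 in Mrps12ep/ep and 2046000 to 3023400 in Mrps12ha/ha hearts. The defining ventricular gene Myl2 read 337052, 162192 and 270319 against 380504, 352200.3 and 367478, so all 6 hearts held the tissue that their labels name.

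Endothelial markers were higher for 17 of 19 genes, 1 without overlap, with a median of 0.42. Without Mrps12ha/ha mouse 2, 10 were called higher (52.6%, against 10.4% of all genes), and mouse 2 itself had a median of -0.118. Aqp1, the water channel of capillary endothelium and red cells, read 12368, 10090.3 and 11723 against 18597, 16318 and 22613 (log2 difference 0.74 ± 0.19 (SE), limma adjusted p = 0.231). Sox18, an endothelial transcription factor, read 2589, 1358 and 1867 against 4279.7, 2102 and 5069, where mouse 2 lay within the Mrps12ep/ep range. Red cell transcripts were higher for 10 of 10 genes with a median of 1.42 (0.68 without Mrps12ha/ha mouse 3, 2.12 without mouse 2) and none without overlap, and the sum of 1424400 in Mrps12ha/ha mouse 3 compared with 201550 in mouse 2 and 136040 to 222590 in Mrps12ep/ep hearts. Of 18 macrophage and leukocyte markers 2 were higher and 2 lower without overlap. Adgre1 (F4/80), which defines tissue macrophages, read 256, 433 and 391 against 109, 199 and 181 (log2 difference -1.15 ± 0.30), and the B cell gene Cd79a 13.9, 33.1 and 16.3 against 53.4, 42.3 and 91.3.

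Transcripts of hepatocytes, which the heart does not make in quantity, varied by heart more than by genotype. Their sums were 22769, 4574 and 2699 in Mrps12ep/ep hearts and 5559, 26544 and 9131 in Mrps12ha/ha hearts. 18 of 19 were higher in the mean, with a median of 1.99 and none without overlap. The median was 3.87 without Mrps12ep/ep mouse 1, 0.65 without Mrps12ep/ep mouse 2 and -0.11 without mouse 2 of both genotypes. The P450 list shares such genes, and of its 43 tested members 4 were higher and 3 lower without overlap.

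**Figure D4:**
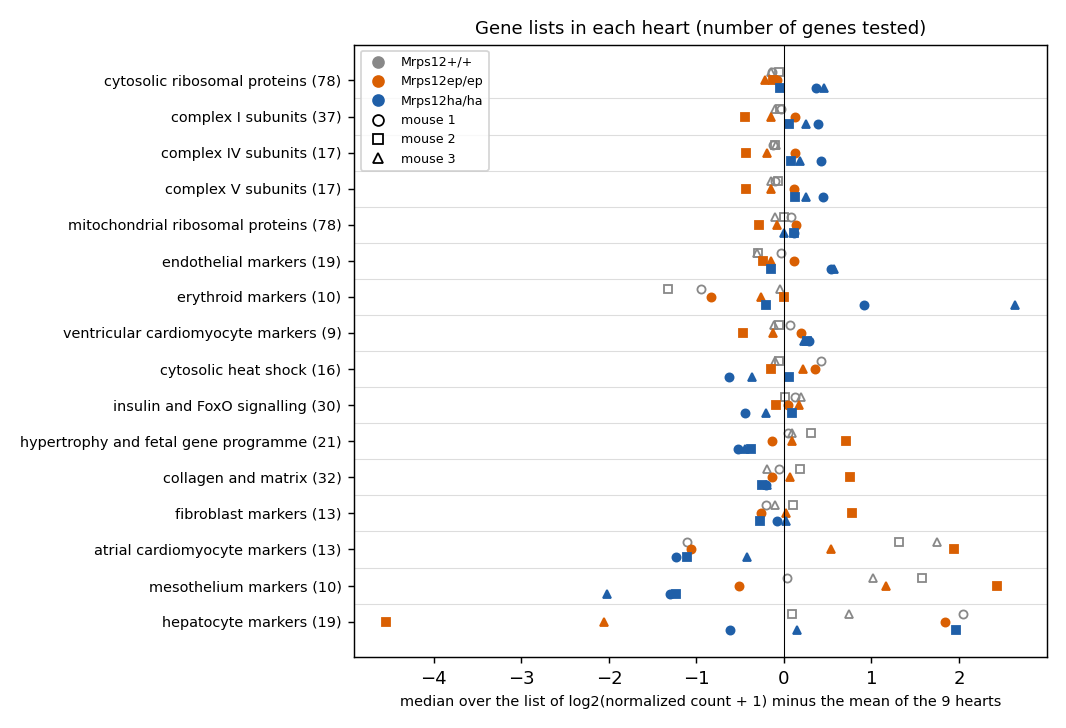
Median over each of 16 gene lists of log2(normalized count + 1) minus the mean of the 9 hearts (horizontal axis), with 1 point per heart, coloured by genotype and shaped by mouse number, and the number of tested genes in brackets. For cytosolic ribosomal proteins and endothelial markers Mrps12ha/ha mouse 2 lies with the orange Mrps12ep/ep points, for the hypertrophy list all 3 Mrps12ha/ha hearts lie together at the left, and the atrial, mesothelium and hepatocyte lists are spread widely within the Mrps12ep/ep hearts.

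Of the 12 genes with the highest differences among well-measured genes without overlap, Angptl4 was named above. Lgals4, a galectin, read 5081, 2610.1 and 4029 against 13439, 7299.6 and 16552 (log2 difference 1.64 ± 0.32 (SE), limma adjusted p = 0.184). It lies on chromosome 7 (28833854 to 28841708), as does the mutated gene Mrps12, and the part of this position in its difference was not tested. Col11a2, a minor fibrillar collagen, read 280.3, 243 and 235 against 893, 444 and 1104, so it ran against the other collagens, and the Mrps12+/+ hearts were at 217, 231 and 228. Nup214, a nuclear pore protein, read 548, 780.0 and 648 against 2211, 1401 and 2215. In these 3 genes mouse 2 was the lowest Mrps12ha/ha heart and was still above the Mrps12ep/ep hearts. Irx2, an Iroquois homeobox gene, read 35.7, 93.9 and 211 against 374, 438 and 591. Cdhr3, a cadherin, read 44.6, 15.1 and 35.4 against 90.2, 78.5 and 98.9, and Pbld1 86.2, 14.5 and 67.2 against 147, 133 and 139.7, and here mouse 2 stood with its group. Rmst, a long noncoding RNA, read 45.6, 30.2 and 20 against 133, 48.3 and 101, Tgfbr3l 104, 142 and 86.3 against 409, 233 and 308 and AC124502.3 20.8, 18 and 21.8 against 155, 54.4 and 134. The last pair have transcripts identical to parts of other genes, Gm49320 over 733 bases and B4gat1 over 1967 bases, so the division of their reads is uncertain. Summed with Gm49320, Tgfbr3l still stood apart, at 140, 166 and 116 against 409, 239 and 308. Summed with B4gat1, AC124502.3 was lower in the Mrps12ha/ha hearts, at 1408, 1356 and 1391 against 1165, 1296 and 1147. Rn7s1, a 7SL RNA of the signal recognition particle, read 54.5, 61.5 and 81.7 against 2196, 362 and 103 and Cenpf, a kinetochore protein, 545, 411 and 618 against 812, 4603 and 1665, and each owed its difference mainly to 1 Mrps12ha/ha heart, mouse 1 and mouse 2 respectively.

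Several sterol synthesis genes were lower without overlap in the Mrps12ha/ha hearts, though the list as a whole hardly differed there. Of 20 tested in the heart 9 had a higher and 11 a lower mean. The median log2 difference was -0.048, against -0.023 over all genes. Without overlap 7 were lower (35.0%) and 2 higher (10.0%), and 5 had an unadjusted p under 0.05. In the liver 18 of 20 were higher in Mrps12ha/ha than in Mrps12ep/ep mice, with a median log2 difference of 0.67. Hsd17b7, an enzyme late in the pathway, read 589, 589 and 569 against 197, 429 and 165 in the heart (log2 difference -1.27 ± 0.32 (SE), limma adjusted p = 0.229). Idi1, which isomerizes the isoprene unit, read 268, 331 and 237 against 157, 233 and 169. In both genes each Mrps12ha/ha heart was below each Mrps12ep/ep heart, and for Idi1 mouse 2 came close to the range. Tm7sf2, a sterol reductase, was higher at 159.5, 97.4 and 102 against 228, 175 and 347. The liver table was normalized apart from the heart table, and no test was made across them.

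A run of neighbouring genes on chromosome 13 was higher in the Mrps12ha/ha hearts. The run was chosen after its values were seen, so its values are a description. From Mccc2 to Ak6 (GRCm38.p6, chromosome 13, 99948530 to 100666359, 718 kb) 12 tested genes that followed each other in order of their starts were higher, 8 of them without overlap, with a median log2 difference of 0.81 and a range of 0.35 to 1.55. The same interval also holds Taf9, within the span of Ak6, which was lower in the mean, so that 12 of its 13 tested genes were higher. In the 9 tested genes on its flanks 2 were higher and the median was -0.24.

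Serf1, a small protein that promotes amyloid formation, had the smallest p of the run, with 161, 151 and 155 in Mrps12ep/ep hearts, 309, 308 and 315 in Mrps12ha/ha hearts and 173, 148 and 166 in Mrps12+/+ hearts (log2 difference 0.99 ± 0.14 (SE), limma adjusted p = 0.102). Mccc2, a subunit of the mitochondrial carboxylase of leucine breakdown, read 2846, 1875 and 2387 against 4436, 4231 and 4465 (log2 difference 0.91 ± 0.14, limma adjusted p = 0.157). Smn1, the survival motor neuron gene, read 310.1, 296 and 276 against 473, 483 and 667. For these the shallow heart stood at the level of the other Mrps12ha/ha hearts, and the Mrps12+/+ hearts lay with the Mrps12ep/ep hearts. Gtf2h2, a subunit of TFIIH, read 464, 434 and 391 against 582, 658 and 729, and Ak6, an adenylate kinase, 2037, 1701 and 1851 against 2393, 3186 and 3031. Taf9 read 86.2, 92.2 and 162 against 64.4, 33.2 and 89.2, and reads of overlapping genes and of the related Naip genes in the run may be divided wrongly. In the liver 12 of 12 genes of the run were higher in the mean in Mrps12ha/ha mice, with a median log2 difference of 0.35. The liver groups were apart for Mccc2, Gtf2h2 and Marveld2 and overlapped for the others. Some liver differences were smaller than their SE, as for Serf1 (0.08 ± 0.18) and Naip5 (0.09 ± 0.44).

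**Figure D5:**
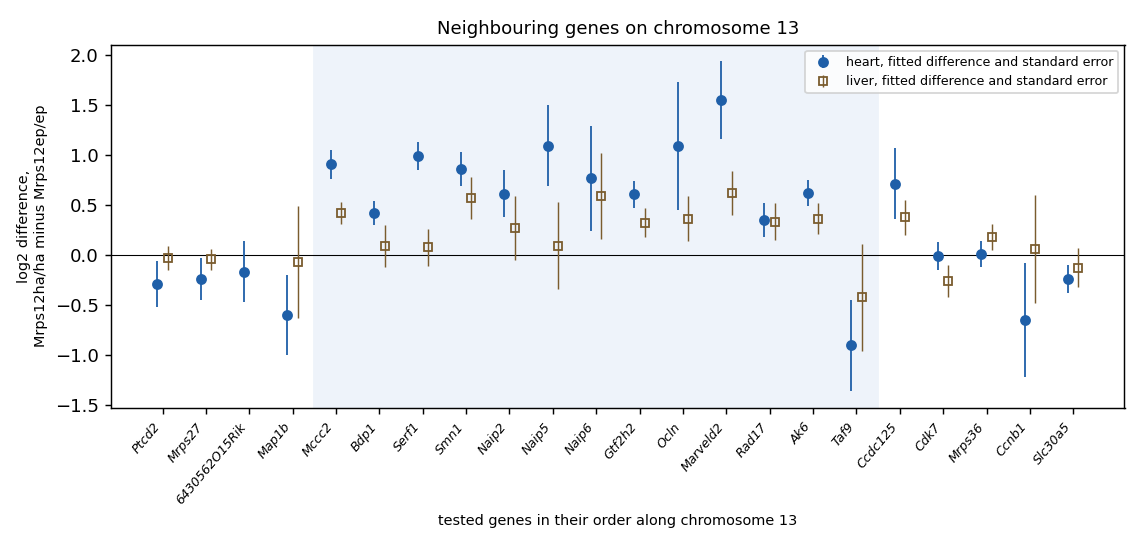
Fitted log2 difference of Mrps12ha/ha minus Mrps12ep/ep mice with its standard error (vertical axis) for tested genes in their order along chromosome 13 (horizontal axis), in heart (filled circles) and liver (open squares). In the shaded part, from Mccc2 to Taf9, the 12 genes other than Taf9 lie above 0 in both tissues, with heart values of 0.35 to 1.55, and most flanking genes lie near or below 0.

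The remaining lists are given by their counts of genes without overlap. Of 26 antioxidant and NRF2 target genes 2 were higher and 3 lower without overlap, with Sod1 at 10044, 7310.2 and 8319 against 12445, 10368 and 12443 and the factor Nfe2l2 (NRF2) at 4222, 4033 and 4214 against 2953, 3751 and 3313. Of 19 genes of the unfolded protein response of the endoplasmic reticulum 1 was lower (5.26%) and none had an unadjusted p under 0.05 in limma. In the mean 15 of these 19 were lower, with a median of -0.215. Without Mrps12ha/ha mouse 2, 6 of the 19 were called lower (31.6%, against 12.9% of all genes). In the livers 1 of the 19 was higher, with a median of -0.465. Of 25 immediate early genes 3 were lower, among them Klf6 at 3760.4, 4149.8 and 3940.4 against 3277, 2899 and 3142, and of 30 interferon-stimulated genes 4 were lower and 1 higher. Of 32 cation channels 2 were higher (6.25%), among them Trpm7 at 1707, 1889 and 1849 against 2759, 2123 and 2560.1, and 2 lower (6.25%). In the mean 24 of the channels were lower, with a median of -0.295. Without Mrps12ha/ha mouse 2 the median was -0.562, with 9 channels called lower (28.1%, against 12.9% of all genes) and 1 higher (3.12%, against 10.4%). Of 29 cell cycle genes 3 were higher in the mean, and 1 was higher and 3 lower without overlap, with Mcm4, a replication helicase subunit, at 323, 387 and 379 against 278, 296 and 280.1. Among the other marker lists, smooth muscle and pericytes had 1 of 12 higher, the conduction system 1 higher and 1 lower of 11, Schwann cells and neurons 1 lower of 10, and adipocytes none of 14. Fast skeletal fibre markers had 1 higher and 3 lower of 11 (27.3% lower, against 7.82%), with a median of -0.47. Fibroblast markers had 4 lower of 13 (30.8%), with a median of -0.25 that was 0.01 without Mrps12ep/ep mouse 2.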

How the data were processed

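RNA from total hearts was sequenced on the Illumina HiSeq platform. The authors trimmed reads with Trim Galore 0.4.1 and cutadapt 1.18, checked them with FastQC 0.11.8, estimated transcript counts with Salmon 1.1.0, pooled 3 technical libraries per mouse, removed mitochondrial transcripts and deposited counts per gene normalized with DESeq2 for each tissue. The deposited values are fold-scaled counts and not whole numbers, so reads were recovered by dividing by the value of 1 read (all values up to 2000 whole within 0.1). All columns of per-sample values were used.

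Values were tested as log2(normalized count + 1), with a mean of at least 10 over 9 hearts, by limma 3.58.1 (R 4.3.3) with an intensity trend, all 3 genotypes in one fit, two-sided, Benjamini-Hochberg threshold 0.05. Fold changes on this scale understate the change of low genes. Nothing says whether hearts of a genotype came from different litters.

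Members, 42 gene lists and tests were chosen with earlier results of these data known. Lists are described by counts and medians. Named were called genes, the 12 highest and 12 lowest log2 differences (mean of at least 50, unadjusted p under 0.05, no overlap, no clone names), the 3 smallest p per list, and 12 genes of interest. Further members were named after their values were seen, and some genes that the rule names are not reported here. Near copies were sought with blastn 2.17.0 among annotated transcripts. Scripts were tested on simulated data. Alternatives covered pseudocount, filter, normalization, weights, block, depth and each mouse left out.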

Additional observations from a re-analysis of the deposited data

Results flagged for a closer look

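In 4 genes every Mrps12ha/ha heart lay on one side of every Mrps12ep/ep heart and every Mrps12ha/ha liver on the opposite side of every Mrps12ep/ep liver. They are 4 of the 96 genes named here that were tested in both tissues, and 19 of the 96 were apart the same way in both. Of these 96 genes 84 were apart in the heart, for which many were chosen. Their shares can therefore not be set against those of all genes. Over all 14070 genes tested in both tissues 2334 were apart in the heart. Among all these, 160 (1.14%) were apart in opposite ways and 265 (1.88%) the same way. The difference between the tissues was not tested, since the tables were normalized separately. Hsd17b7, an enzyme of sterol synthesis, had a log2 difference of -1.27 in the heart and 0.67 in the liver, where it read 1184, 1282 and 1225 normalized counts in Mrps12ep/ep and 2097, 1643 and 2171 in Mrps12ha/ha mice. Mrps12+/+ livers read 2591, 3351 and 5596, above the livers of both mutants, and the mutants did not differ by limma (liver adjusted p = 0.515). Idi1 of the same pathway had -0.59 and 1.43, with 2096, 1837 and 2366 against 6248, 3473 and 8215 in the livers. Cyp51, the sterol demethylase, had -0.50 and 1.04, with 1796, 2136 and 2180 against 4260.3, 2972 and 5797 in the livers (limma adjusted p = 0.417). Mrps12+/+ livers were again above those of both mutants, at 6902.5, 9264 and 14844. Mthfd1l, a mitochondrial one-carbon enzyme, had 0.93 and -1.58, with 265, 111 and 133 against 61.9, 45.0 and 50.9 in the livers (limma adjusted p = 0.417). Mrps12+/+ livers read 221, 107 and 318.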

How the results depend on the processing

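The count of 4 called genes, 1 higher and 3 lower, was between 3 and 6 in every alternative that kept Mrps12ha/ha mouse 2 at equal weight. Leaving out 1 mouse at a time gave 3 to 3730 genes, 0 to 1663 higher and 3 to 2067 lower, and only Mrps12ha/ha mouse 2 gave more than 6. Array weights gave 6314 (2953 higher, 3361 lower), limma-voom with sample quality weights 5557 (2707, 2850), mouse 2 left out with the GC and length trend removed 3156 (1365, 1791), and mouse 2 of both genotypes left out 3819 (1594, 2225), the last 2 chosen after seeing the data, as was the trend removal alone. With a pseudocount of 8, a mean of 50 or more, or reads thinned to the shallowest heart 0 genes were higher and 3 lower, without a filter or with quantile normalization 3 and 3, and with both mutants only 0 and 5. Gm15387 and Ptges3-ps were called in 26 of 26 alternatives, Gm6206 in 25 and AL731706.2 in 12 of 25. The replicate block, by itself and with the trend removed, gave 0 higher and 4 lower, but same-numbered Mrps12ep/ep and Mrps12ha/ha hearts did not deviate together (correlations -0.0966, -0.231 and -0.0471), and of the same-numbered Mrps12+/+ and Mrps12ep/ep hearts only 2 of 3 did (0.578, 0.409 and -0.0697), so the numbers were not taken to pair mice. No gene whose sign changed was called with all hearts, and the cause was not tested: with the trend removed Atf4 (-0.03), Mrpl52 (-0.016) and Mrps12 (-0.195), with or without the block, and without mouse 2 also Mrpl52 (-0.072), Mrps12 (-0.201) and Etfb (-0.046), Atf4 when 1 mouse was left out (-0.061 to 0.123, the lowest without Mrps12ha/ha mouse 3), Bmp10 without mouse 2 of both genotypes (0.257), and Myh6 with quantile normalization (-0.05). edgeR and DESeq2 on the recovered reads were planned and not run. Depth limits low genes most in Mrps12ha/ha mouse 2, where a count of 0 allows up to 9.06 normalized counts, for counting error only.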
